A study of Mus musculus with 12 samples.

Results

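The collagen and laminin genes of the mouse genome were followed through the islet of Langerhans, from the stromal and endothelial cells that came along in the cell sort to the hormone-producing α-, β-, γ- and δ-cells. Members were taken by their symbols alone, as every gene written Col, a number, a and a number and every Lama, Lamb or Lamc gene with a digit. This gave 55 genes, 44 collagens and 11 laminins, of the 31055 genes in the single-cell matrices and of the 45808 genes in the bulk table. All samples came from 2-month-old mice on a mixed background. The 4 single-cell libraries held the YFP+ and YFP- islet cells of doxycycline-treated Ppy-rtTA; R26-YFP mice in 2 independent experiments. YFP+ and YFP- libraries numbered alike in the labels were taken as the same experiment. The islets of several mice were pooled in each experiment, and the age tag of these libraries reads wild-type. The bulk libraries were 5 samples of YFP+ γ-cells of genotype Ppy-rtTA;TetO-Cre;R26-YFP and 3 samples of δ-cells of genotype Sst-Cre;R26-YFP. Doxycycline was given to the mice with Ppy-rtTA at 1 mg/ml in the drinking water, and the labels name none for the Sst-Cre mice. The rtTA transactivator replaced the coding sequence of a Ppy allele, so YFP marked cells that had used the Ppy promoter during treatment. The δ-cell label rests on Sst-driven Cre, which marks a cell for good once Cre has acted. Nothing in the labels says that same-group bulk libraries came from separate mice, so p-values measure the spread between these samples. The bulk γ-cells were sequenced as paired ends on 1 instrument and the δ-cells as single ends on another, and neither this nor the treatment can be told apart from the cell type.

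Collagens are secreted or membrane proteins whose α-chains wind into a rope-like helix. Fibrillar collagens such as Col1a1, Col1a2 and Col3a1 form the cables of connective tissue, collagen VI forms beaded filaments beside them, and collagen IV forms the sheet of the basement membrane. Laminins are built of an α-, a β- and a γ-chain and form the other network of the basement membrane, to which epithelial and endothelial cells attach through integrins and dystroglycan. In the mouse islet the vascular basement membrane lies against the endocrine cells, and endothelial and stromal cells are its best-known source.

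The upstream sequences of a few members are shown because results below turn on them. Shown are Col3a1, leading member of the stromal cells, Col1a2, leading member of the pooled endocrine clusters, and Lama5, a laminin α-chain higher in γ-cells. Each is the 250 bases before the start of transcription in RefSeq on build GRCm38.p6, printed 5′ to 3′ on the gene's strand, and 40 of the 55 members had an entry. Capitals mark a GC box (GGGCGG, or CCGCCC on the other strand), a CCAAT box (CCAAT, or ATTGG) or a TATA box (TATAAA, or TTTATA).
Col3a1, chr1:45311288-45311537, plus strand: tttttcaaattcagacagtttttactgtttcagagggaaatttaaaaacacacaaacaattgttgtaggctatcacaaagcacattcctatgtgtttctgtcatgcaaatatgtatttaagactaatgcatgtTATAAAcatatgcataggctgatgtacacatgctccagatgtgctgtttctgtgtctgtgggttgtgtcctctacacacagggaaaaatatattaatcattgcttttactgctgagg
Col1a2, chr6:4505368-4505617, plus strand: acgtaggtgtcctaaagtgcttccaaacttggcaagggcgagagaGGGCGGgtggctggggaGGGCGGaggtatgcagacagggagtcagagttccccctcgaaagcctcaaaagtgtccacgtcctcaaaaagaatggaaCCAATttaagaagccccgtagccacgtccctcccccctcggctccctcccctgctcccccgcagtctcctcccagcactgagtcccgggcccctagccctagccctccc
Lama5, chr2:180225860-180226109, minus strand: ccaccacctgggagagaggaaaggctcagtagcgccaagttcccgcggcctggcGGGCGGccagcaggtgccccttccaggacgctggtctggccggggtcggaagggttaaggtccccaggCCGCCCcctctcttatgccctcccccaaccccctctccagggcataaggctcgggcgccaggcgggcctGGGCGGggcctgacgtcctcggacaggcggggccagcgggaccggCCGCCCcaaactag
The Col3a1 window was 35.2% G and C and held a TATA box 117 bases before the start. The Col1a2 window was 62% G and C, with GC boxes 205 and 188 bases and a CCAAT box 109 bases before the start. The Lama5 window was 72.4% G and C and held 4 GC boxes, the nearest 14 bases before the start. Of all 32851 windows of this length, 32.7% held a GC box, 33.8% a CCAAT box and 12.4% a TATA box, against 23, 14 and 5 of the 40 members. A match is a description of letters and not a measured binding site.

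Col4a1 and Col4a2, the main chains of collagen IV, are transcribed away from each other from starts that overlap by 22 bases, in capitals here with 4 bases on each side. Bulk reads in this overlap cannot be assigned to a gene without strand, so both bulk values are uncertain to that extent.
Col4a1 and Col4a2, chr8:11312801-11312830, plus strand: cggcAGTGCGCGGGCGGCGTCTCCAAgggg
Col4a4 and Col4a3 on chromosome 1 lie head to head with starts 72 bases apart, and Col4a6 and Col4a5 on chromosome X lie head to head with starts 1309 bases apart.

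The matrices held 1300 and 1498 YFP+ cells and 1495 and 1689 YFP- cells, with 10683494 to 18330975 UMIs (unique molecular identifiers, which count captured RNA molecules) per library and medians of 4237 to 8338 UMIs per cell. After 128 called doublets were removed, 5854 cells remained. Pairs of libraries shared 1 to 6 cell barcodes. A cell counted as hormone-positive when ln(1 + counts per 10000) exceeded 3.23 for Ppy, 5.12 for Gcg, 6.36 for Ins2 or 3.32 for Sst. The YFP- libraries held 353 and 793 hormone-negative cells.

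Collagen and laminin RNA in the islet preparation was mostly stromal. Clusters were made without the 55 genes and named from cell type markers, so that the members' levels in them are a description. The 311 cells of the 2 stromal-like clusters, 5.313% of all cells with 1.694% of all UMIs, held 77.07% of the members' UMIs. The endothelial-like cluster of 229 cells held 7.492% of them. The 4439 cells of the endocrine clusters, with 85.45% of all UMIs, held 10.8%. Of the 55 members, 50 had a UMI in some cell, 41 had 10 or more, and Col10a1, Col19a1, Col24a1, Col2a1 and Col9a1 had none.

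In the stromal-like cluster led by Dcn, the gene of the collagen-binding proteoglycan decorin (287 cells), the fibrillar chains stood highest. Col3a1 was at 4829 CPM (UMIs of the gene per 1000000 UMIs of the cluster), Col1a2 at 2914, Col1a1 at 1563 and the fibril-associated Col14a1 at 1055 CPM. The beaded-filament chains Col6a1, Col6a2 and Col6a3 followed at 724.7, 588.6 and 412.1 CPM. Col5a2 and Col5a1, which are known to set fibril width, were at 371.8 and 296.2 CPM. Per cluster, the members summed to 15090 CPM here, to 2008 CPM in the 24 cells led by Rgs5 and Acta2, genes of pericytes and smooth muscle, and to 2500 CPM in the endothelial-like cells.

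The basement membrane genes were divided between these cell groups. Col4a1 and Col4a2 were higher in the endothelial-like cluster, at 908.3 and 770.4 CPM, than in the Dcn-led stromal cluster, at 383.1 and 218 CPM. Col15a1, a basement-membrane-anchored collagen, was at 303.5 CPM in endothelial-like and 234.4 CPM in Dcn-led cells. The laminin α-chains were divided as well. Lama2 had 126 CPM in the Dcn-led cells and no UMI in the endothelial-like cells, while Lama3 and Lama5 were each at 42.44 CPM in the endothelial-like cells and had no UMI in the Dcn-led cells. Lama4 was found in both, at 142.4 and 80.64 CPM. The widely expressed chains Lamb1 and Lamc1 were at 238.2 and 345.3 CPM in the Dcn-led cells, and at 44.57 and 55.18 CPM in the endothelial-like cells. Lamb2 was highest in the Rgs5-led cells, at 290.8 CPM. Lama5 was also present there, at 55.39 CPM. Lama1 had 2 UMIs and Lamc3 2 UMIs in all cells.

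A few members were counted in other cell groups as well. Col18a1, whose C-terminal end is endostatin, was at 46.51 CPM in the ductal-like cluster (53 cells), 75.62 CPM in the Dcn-led cells and 83.09 CPM in the Rgs5-led cells. Lamb3 was counted mostly in immune clusters, with 14 UMIs in a B-lineage-like cluster, 11 in T or NK-like cells and 1 in all endocrine cells. Col7a1, the anchoring-fibril collagen, had 9 UMIs in the acinar-like cluster. An unnamed cluster of 227 cells led by Lyz1 and Ear2 held 348.9 CPM of members, a sum led by Col3a1 at 33.41%. Few of its cells carried these UMIs, as Col3a1 was found in 5.727% and Col1a2 in 3.524% of them. Fewer UMIs were recorded from stromal and endothelial cells (medians of 2616 and 1679 per cell) than from endocrine cells (7184).

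**Figure D1:**
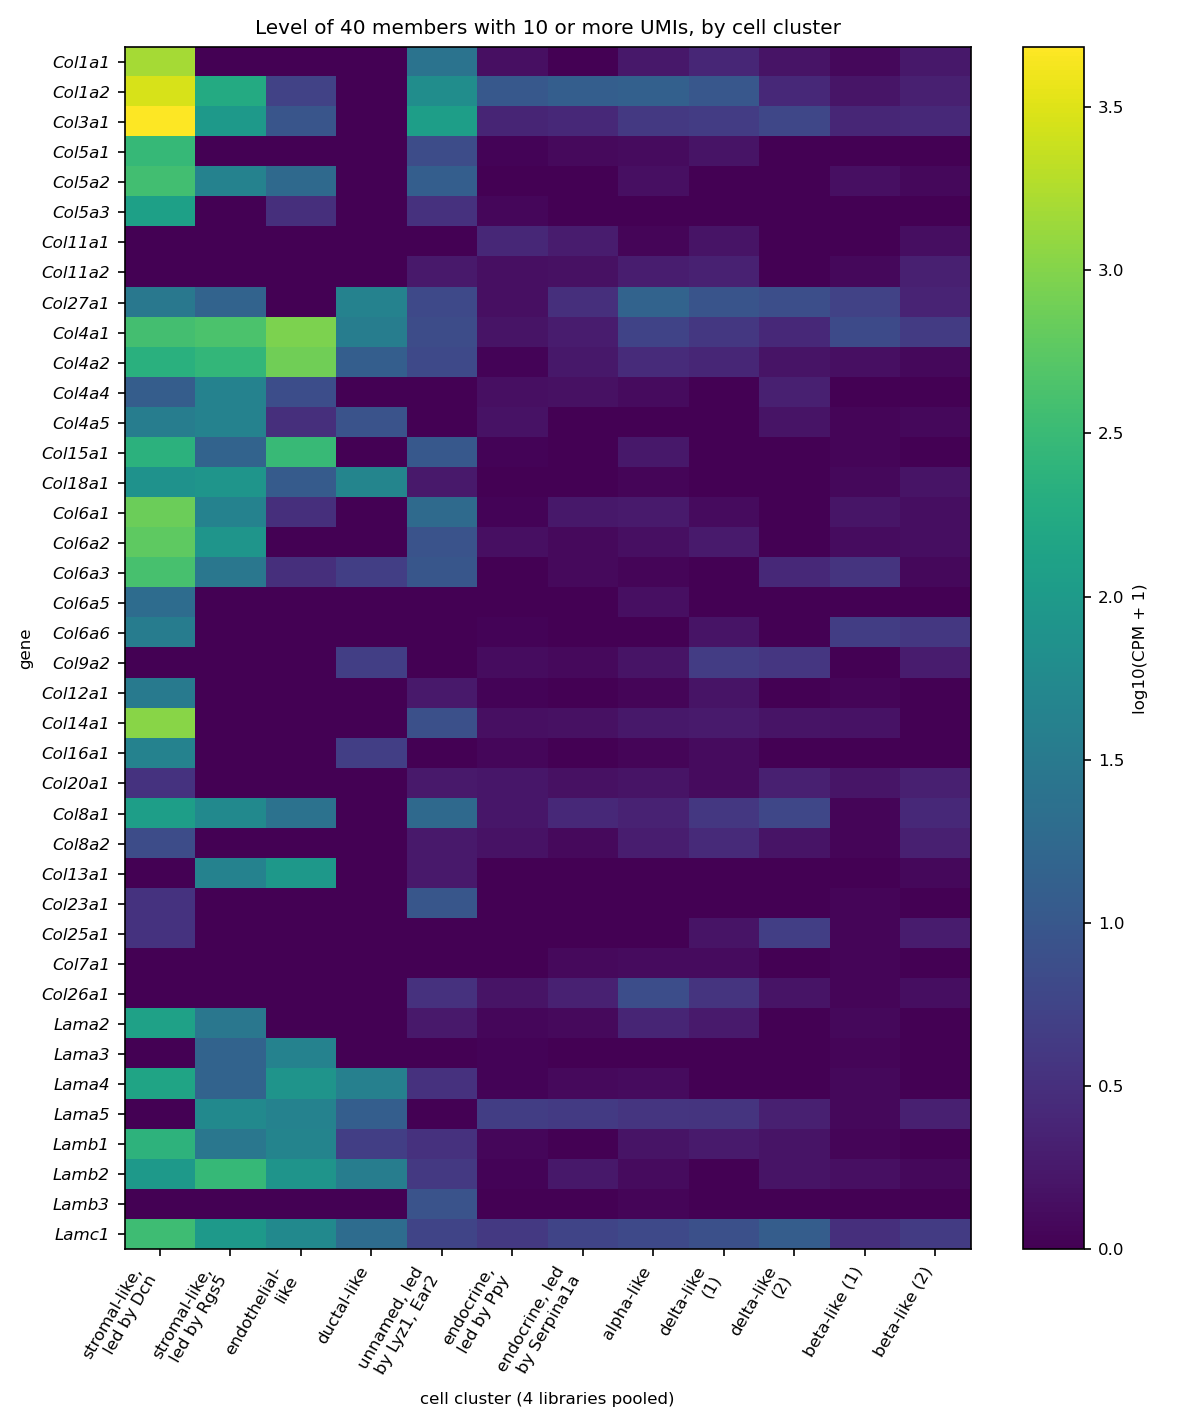
Level of 40 members with 10 or more UMIs in each of 12 cell groups, as log10(CPM + 1); rows are genes and columns cell groups. Fibrillar and beaded-filament collagens stand out in the stromal column, Col4a1 and Col4a2 in the endothelial column, and the endocrine columns stay low, with sums of 28.5 to 66.74 CPM.

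The first comparison asked how cells without a hormone differed from hormone-positive cells of the same 2 YFP- libraries. Most of the tested collagens and laminins were higher in cells without a hormone. Of the 55 members 32 had enough counts to be tested, and 26 of these were higher and 0 lower in hormone-negative cells by edgeR's quasi-likelihood test with Benjamini-Hochberg adjustment, where a call needs an adjusted p no higher than 0.05 and a fold above 0.5 on the natural-log scale (0.721 on the log2 scale). Of all 12854 genes tested, 24% were called higher and 22.5% lower. A member could pass the filter on low counts through the hormone-negative sums alone, so the counts of calls favour members high there. Col26a1 did not pass. Without the filter it was called lower in hormone-negative cells (log2 fold change -4.25, edgeR adjusted p = 0.0265). At an unadjusted p under 0.05, 28 members were higher and 1 lower, against 3641 and 3573 of all 12854 genes tested. DESeq2 called 23 members higher and 0 lower. The median log2 fold change was 4.26 over the 32 members and -0.06 over all genes. In 29 members both hormone-negative sums lay above both hormone-positive sums and in 1 below, against 48.7% and 18.9% of all genes.

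Col3a1 had the largest log2 fold change. It was at 357.85 and 550.27 CPM in the hormone-negative cells of experiments 1 and 2, and at 1.161 and 6.81 CPM in the hormone-positive cells (log2 fold change 6.61 ± 0.50 SE, edgeR adjusted p = 0.0015, n = 2 libraries). The groups were far apart in both experiments, although the hormone-positive cells of experiment 2 held more Col3a1 than those of experiment 1. Col1a2 was at 200.7 and 355.06 CPM in hormone-negative and at 2.97 and 9.48 CPM in hormone-positive cells (5.02 ± 0.27, adjusted p = 0.00128). Col1a1, its partner chain in type I collagen, was at 98.3 and 184.9 against 0.258 and 4.00 CPM (5.99 ± 0.61). Col14a1 was at 74.5 and 105.8 against 0.194 and 1.48 CPM (6.46 ± 0.45). Other fibrillar chains were Col5a1 (6.52), Col5a3 (5.69) and Col5a2 (5.56), and beaded-filament chains Col6a2 (6.25), Col6a1 (5.79) and Col6a3 (4.01), all on the log2 scale and all called.

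Basement membrane chains were higher as well. Col4a1 was at 88 and 136.3 CPM in hormone-negative and at 4.45 and 8.59 CPM in hormone-positive cells, a log2 fold change of 3.52 ± 0.20 (edgeR adjusted p = 0.00128). Its partner Col4a2 was at 88.5 and 88.8 against 0.516 and 3.26 CPM (5.28 ± 0.54). Hormone-positive cells thus held 4.45 CPM of Col4a1 beside 0.516 CPM of Col4a2 in experiment 1, while hormone-negative cells of that experiment held 88 and 88.5 CPM. Lamc1 was at 39.1 and 38.5 against 2.84 and 6.51 CPM (2.54 ± 0.28, adjusted p = 0.00288), the smallest difference among the called laminins. The log2 fold changes of the other called laminins were 5.36 (Lama3), 5.06 (Lamb1), 4.68 (Lama4), 4.50 (Lamb2), 3.63 (Lamb3) and 3.33 (Lama2).

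The calls left out 6 tested members. Among them Col27a1, a fibrillar collagen of cartilage, was at 3.59 and 7.19 CPM in hormone-negative and 7.74 and 8.14 CPM in hormone-positive cells (-1.16 ± 0.42, adjusted p = 0.0755). Lama5, Col4a4, Col23a1 and Col6a6 had log2 fold changes of 1.68, 2.75, 3.16 and 0.13 (adjusted p = 0.0626, 0.0576, 0.102 and 0.876). Hormone-negative cells are a mixture, so fewer cells of a type and less RNA per cell cannot be told apart in these sums. The stromal markers summed to 2636.93 and 2629.72 CPM in the hormone-negative cells, with 14 of 15 called higher, and 13 of 13 endothelial markers were called higher as well. So were 14 of 14 myeloid, 10 of 10 B-lineage and 7 of 7 T or NK markers, which mark immune cells. Their part in the members' differences was not tested.

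**Figure D2:**
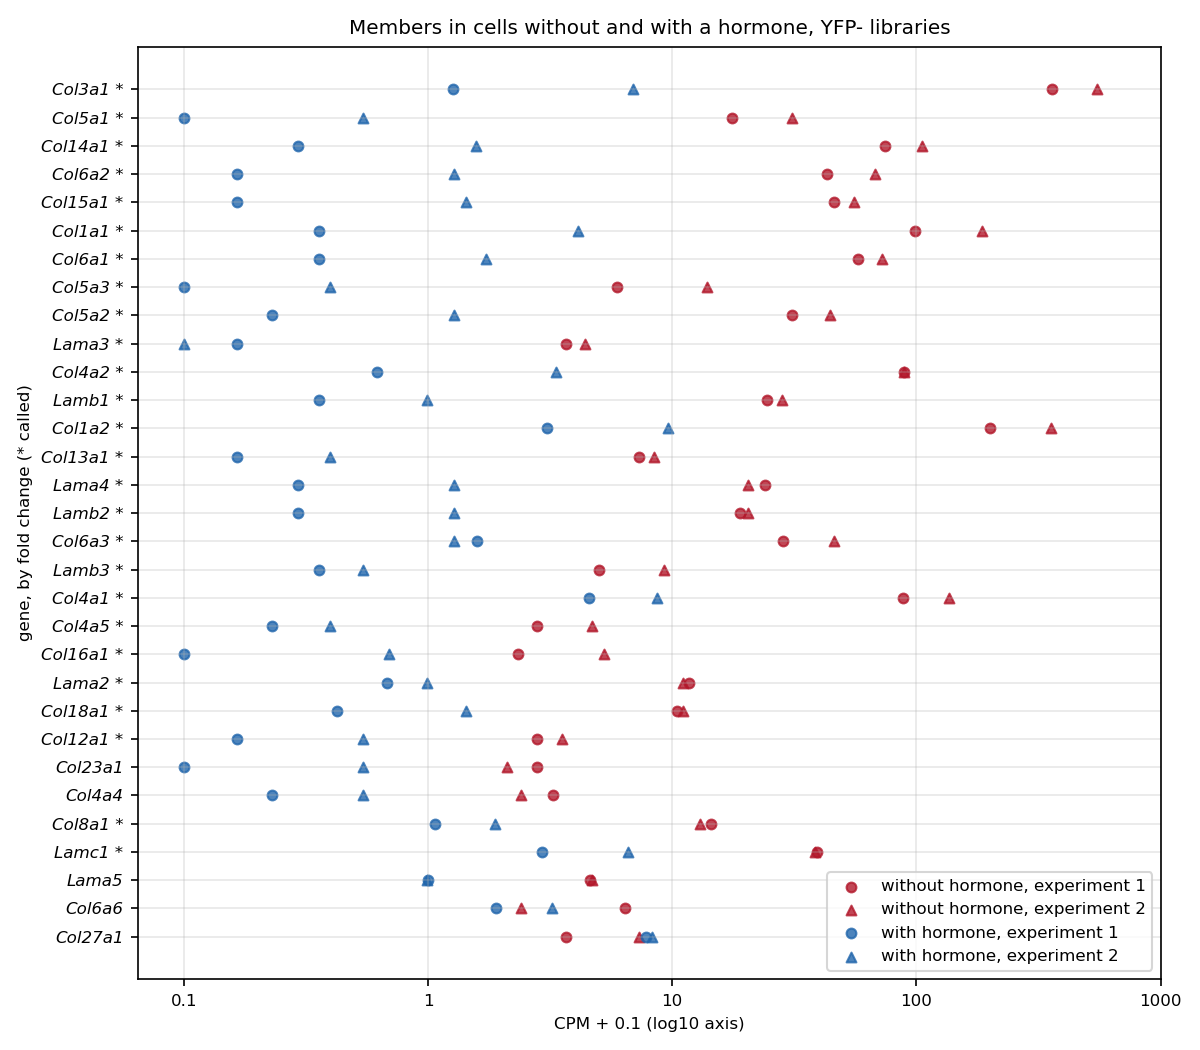
Level of 31 tested members in hormone-negative and hormone-positive cells of the YFP- libraries, as CPM + 0.1 on a log axis, with a point for each experiment and an asterisk at the 26 members called higher. Both hormone-negative points lie above both hormone-positive points for every gene shown except Col6a6, whose points overlap, and Col27a1, whose hormone-negative points are the lower ones.

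Genes that build, bind or cut the matrix were read beside the 24% of all genes called higher and the 22.5% called lower in this comparison. Of 9 basement membrane partners 8 were higher and 1 lower, led by fibronectin (Fn1, 6.25 on the log2 scale), Sparc (5.74) and nidogen-2 (Nid2, 5.56), while Egflam, a dystroglycan ligand, was lower (-1.64). Of 28 tested genes for collagen folding and modification 12 were higher and 3 lower. Higher were the cross-linking enzyme Lox (8.31), the procollagen protease Adamts2 (6.13) and the protease enhancer Pcolce (5.58), and lower were P3h4 (-2.65), Mia3 (-1.21) and Mia2 (-0.93), of which Mia2 and Mia3 help bulky cargo leave the endoplasmic reticulum. Of 15 tested receptors 10 were higher and 2 lower, with the collagen receptor Ddr2 at 6.53 and its relative Ddr1 at -3.11. Of 9 tested proteases and inhibitors 8 were higher, among them Mmp2 (6.02) and Timp3 (5.73).

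Shares of cells gave the same order once depth was matched. With each cell thinned to 1000 UMIs, 37.52% of the 1146 hormone-negative cells of the YFP- libraries held a member UMI (exact 95% interval 34.71 to 40.4), and 5.112% of the hormone-positive cells did (4.169 to 6.195). Unthinned, the shares were 52.27% and 36.1%, at medians of 3200 and 7994 UMIs. The thinned share was 98.07% in stromal-like, 83.41% in endothelial-like and 4.145% in endocrine cells. It was 3.846% in myeloid-like and 1.648% in B-lineage-like cells (1.424 to 8.183 and 0.3412 to 4.741), and the endocrine share lay inside both intervals. Whether the endocrine counts were background was not tested. Intervals here and below cover counting error only.

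Some hormone-positive cells lay outside the endocrine clusters, and they carried most member RNA of the YFP+ libraries. In these libraries the members summed to 155.473 and 264.946 CPM over hormone-positive cells. The 53 and 139 of these cells outside the endocrine clusters were at 3946.99 and 4040.08 CPM, with stromal markers at 5610.05 and 6556.63 CPM. The Dcn-led stromal cluster held 26 and 77 cells of the YFP+ libraries. Cells outside the endocrine clusters were therefore left out of the comparisons between hormone classes.

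Over the endocrine clusters together a different member led. Col1a2 was the leading member there, with 298 of the 1698 member UMIs (17.55%), while Col3a1 had 90 UMIs, Col1a1 22 UMIs and the stromal marker Dcn 80 UMIs. Taken singly, the α-like cluster was led by Col27a1, the β-like clusters by Col4a1 and Lamc1, and a δ-like cluster by Lamc1. In the Dcn-led stromal cluster Col1a2 made up 37.63% of the UMIs of Col1a2 and Col3a1 together (2312 against 3832 UMIs, exact 95% interval 36.42 to 38.86), and 33.91% to 39.56% in the 4 libraries. In the endocrine clusters it made up 76.8% (72.28 to 80.91). By library the endocrine share was 93.7% (119 against 8 UMIs, interval 87.97 to 97.24) in YFP+ cells of experiment 1 and 76.64% (82 against 25 UMIs, 67.47 to 84.27) in those of experiment 2. It was 71.88% (46 against 18 UMIs, 59.24 to 82.4) in YFP- cells of experiment 1 and 56.67% (51 against 39 UMIs, 45.8 to 67.08) in those of experiment 2. All 4 endocrine shares lay above all 4 stromal shares, and no test was made because clusters come from the same cells.

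The Col1a2 share differed among endocrine cells as well. It was 86.14% in Ppy+ cells (77.84 to 92.21), 77.27% in Gcg+ cells (67.11 to 85.53) and 89.81% in Ppy+Gcg+ bihormonal cells (82.51 to 94.8). In Ins2+ cells Col1a2 had 5 UMIs against 14 of Col3a1, a share of 26.32% (9.147 to 51.2), and in Sst+ cells 1 UMI against 4, 20% (0.5051 to 71.64). The Ins2+ and stromal intervals overlapped. Within the same YFP- library Col1a2 was at 12.11 CPM in Gcg+ and 0.09736 CPM in Ins2+ cells of experiment 1, and at 13.35 and 3.106 CPM in those of experiment 2, both before TMM scaling. Col1a2 was found in 5.147% of Ppy+ cells (median of 6738 UMIs) and in 3.846% of B-lineage-like cells (median of 8535 UMIs), which are not known to make type I collagen. The source of these UMIs was not tested. The shares were 9.663% in Gcg+ and 11.62% in Ppy+Gcg+ cells, and 0.956% in Ins2+ cells at a median of 22580 UMIs. Thinned to 1000 UMIs, the Col1a2 shares were 0.7353%, 0.6135%, 2.075% and 0.1912% in Ppy+, Gcg+, Ppy+Gcg+ and Ins2+ cells, and 0 of 182 B-lineage-like cells had a UMI, for which 3 counts would be 1.648%.

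**Figure D3:**
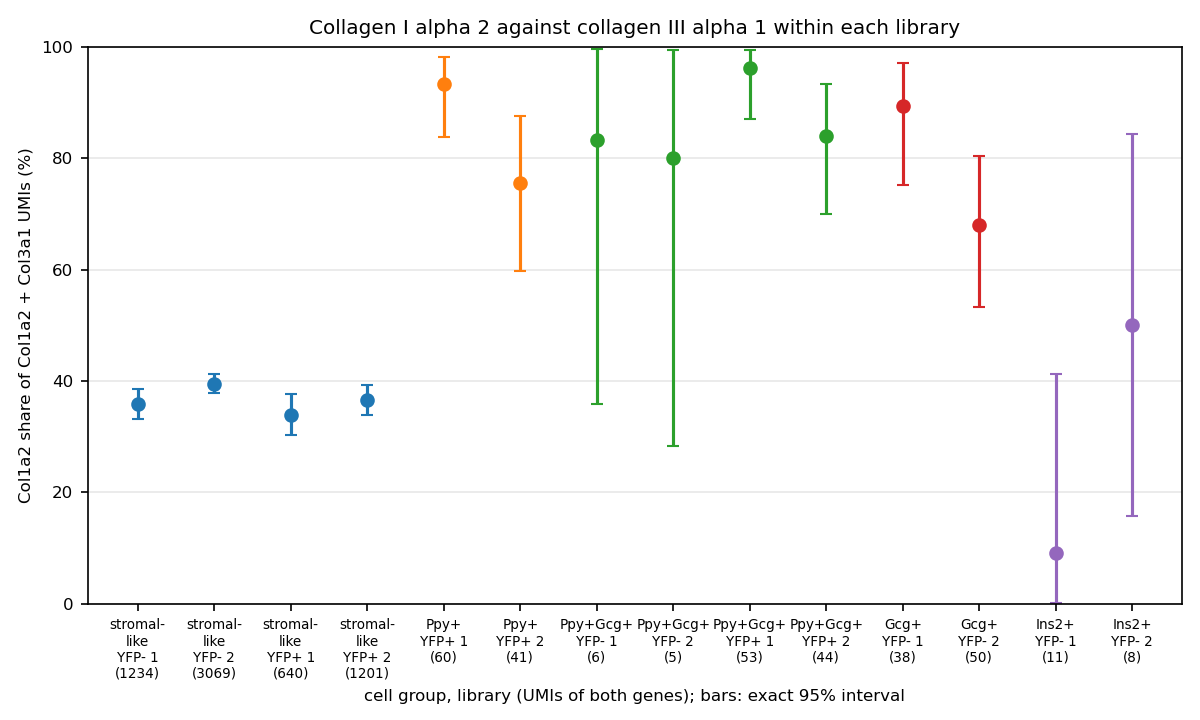
Col1a2 as a percent of the UMIs of Col1a2 and Col3a1 together, for the Dcn-led stromal cluster and for 4 hormone classes of endocrine cells, with a point for each library and exact 95% binomial intervals that cover counting error only. Stromal points lie between 33.91% and 39.56%, Ppy+, Ppy+Gcg+ and Gcg+ points between 68% and 96.23%, and the Ins2+ points, from 11 and 8 UMIs, at 9.091% and 50%.

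The next comparisons asked how hormone classes differed among endocrine cells, over UMI sums per class and experiment (7 classes in 2 experiments, 14 sums). The filter on low counts left 7 of the 55 members to be tested: Col1a2, Col3a1, Col4a1, Col8a1, Col26a1, Col27a1 and Lamc1. A member could pass this filter through the sums of a single class, so the counts of calls favour members high in some class. The members summed to 21.58 to 80.48 CPM over the 14 sums, the stromal markers to 37.18 to 199.7 CPM and the endothelial markers to 5.363 to 66.56 CPM. Levels of single genes below are CPM scaled by TMM, a normalization that offsets the large share of hormone RNA, which was 15.8% to 69.9% of the UMIs of a sum and highest in Ins2+ cells. They are printed for experiment 1 and then experiment 2. Of the 1496 Ppy+ cells, 698 and 783 came from the YFP+ libraries, while all 652 Gcg+ and 261 Sst+ cells and all but 1 of the 523 Ins2+ cells came from the YFP- libraries, so that class and library cannot be told apart where Ppy+ cells are compared with these. Markers of other cells differed between these classes too. The B-lineage markers summed to 16.3 and 18.9 scaled CPM in Ppy+ cells, and to 437 and 505 in Gcg+, 682 and 789 in Ins2+ and 355 and 423 in Sst+ cells.

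Monohormonal Ppy+ cells (699 and 797 cells) had less Col27a1, Col26a1 and Col4a1 than Gcg+ cells (323 and 329 cells). These were the 3 members called lower, and 0 were called higher, where 6.59% and 5.6% of the 10554 genes tested were. Col26a1 could pass the filter on low counts through the Gcg+ sums alone, so this split is partly set by the filter. At an unadjusted p under 0.05, 0 members were higher and 4 lower, against 1541 and 1612 of all 10554 genes tested. Also lower in Ppy+ cells were 8 of 11 acinar, 5 of 6 B-lineage, 4 of 6 myeloid and 3 of 3 goblet markers. Of 8 ductal markers 5 were higher and 0 lower. Of 4 endothelial markers 1 was higher and 1 lower, and the list summed to 35.4 and 37.5 scaled CPM in Ppy+ and 17.5 and 46.1 in Gcg+ cells. The part of these markers in the differences was not tested. With cells of every cluster 11 members were higher and 2 lower, with no share of all genes at hand for that choice of cells. Col4a1 then turned from -2.77 to 0.84 (edgeR adjusted p = 0.0728), and Col1a2 (2.75) and Col3a1 (5.28) were called higher. Within the endocrine clusters Col4a1 had 5 UMIs in Ppy+ and 8 in Gcg+ cells of experiment 1, and 2 and 23 in those of experiment 2. Before TMM scaling these were 0.839 and 2.85 CPM in experiment 1, and 0.362 and 9.03 CPM in experiment 2. Col27a1 was at 0 and 0.209 scaled CPM in Ppy+ cells and at 17.17 and 9.637 in Gcg+ cells (1 against 80 UMIs). The log2 fold change was -6.49 ± 0.61 (edgeR adjusted p = 1.83e-10), and the ratio of counts with its counting interval was 0.00749 (0.000187 to 0.0429). Of Col26a1, whose product is a secreted collagen of reproductive tissue, Ppy+ cells held 0.195 and 0.418 and Gcg+ cells 5.614 and 5.163 scaled CPM (-3.96 ± 0.74, adjusted p = 1.19e-04, 3 against 32 UMIs). Both genes were apart in each experiment. Col26a1 had 70 UMIs in endocrine cells, 45 of them in the α-like cluster, and none in the stromal- or endothelial-like clusters. Col27a1 was the leading member of the α-like cluster, at 13.88 CPM and 20.8% of its member UMIs. Col1a2 was at 10.93 and 6.482 scaled CPM in Ppy+ and 11.23 and 11.7 in Gcg+ cells (-0.39 ± 0.32, adjusted p = 0.448).

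Against Ins2+ cells (431 and 92 cells), Ppy+ cells had more Col1a2 and less Col27a1 and Col4a1, with 1 member called higher and 2 lower where 11.7% and 13.8% of genes were. Ins2+ cells were at 0.193 and 4.924 scaled CPM of Col1a2, below the Ppy+ values of both experiments (3.33 ± 0.59, edgeR adjusted p = 2.61e-05, 87 against 5 UMIs). Col4a1 was at 10.04 and 12.31 scaled CPM in Ins2+ and 0.976 and 0.418 in Ppy+ cells (-4.03 ± 0.53, adjusted p = 1.2e-07, 7 against 62 UMIs). This call was lost with cells of every cluster (-0.46, adjusted p = 0.248). The endothelial markers summed to 16.6 and 45.4 scaled CPM in Ins2+ and to 35.4 and 37.5 in Ppy+ cells. Of other marker lists, 10 of 11 acinar, 6 of 6 B-lineage, 5 of 6 myeloid and 3 of 3 goblet markers were lower in Ppy+ cells. Of 8 ductal markers 4 were higher and 0 lower, and of 4 endothelial markers 2 were higher and 1 lower. The part of these markers was not tested. Col27a1 was at 7.918 and 1.231 scaled CPM in Ins2+ cells (-5.22 ± 0.74, adjusted p = 5.38e-07), with the value of experiment 2 below that of experiment 1.

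Against Sst+ cells (131 and 130 cells), Ppy+ cells were higher in Col1a2 and lower in Col27a1, 1 member called each way, where 5.04% and 6.73% of genes were called in these directions. Col1a2 had 87 UMIs in Ppy+ and 1 UMI in Sst+ cells (log2 fold change 3.56 ± 1.06, edgeR adjusted p = 0.0197, ratio 12.6 with an interval of 2.19 to 501). The call was lost under DESeq2 (adjusted p = 0.15), with doublets kept (0.0524) and without the experiment block (0.0855). Col27a1 was at 6.222 and 1.6 scaled CPM in Sst+ cells (-4.76 ± 1.15, adjusted p = 0.00334, 1 against 6 UMIs), a call lost with cells of every cluster (-2.65, adjusted p = 0.0553). Here 5 of 11 acinar, 5 of 6 B-lineage, 3 of 6 myeloid and 3 of 3 goblet markers were lower in Ppy+ cells. Of 8 ductal markers 2 were higher and 4 lower.

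The other monohormonal classes differed in the same few genes. Gcg+ cells exceeded Ins2+ cells in Col1a2 (3.73 ± 0.59, edgeR adjusted p = 4.97e-06), in Col26a1 (4.87 ± 0.97, adjusted p = 1.53e-04, 32 against 1 UMIs) and in Col27a1 (1.27 ± 0.34, adjusted p = 0.00373). They were lower than Ins2+ cells in Col4a1 (-1.26 ± 0.41, adjusted p = 0.0184), with 10.7% of genes called higher and 11.7% lower. The Col27a1 and Col4a1 calls were lost under DESeq2 (adjusted p = 0.0674 and 0.202) and without the experiment block (0.166 and 0.233). Gcg+ cells exceeded Sst+ cells in Col1a2 (3.95 ± 1.02, adjusted p = 0.00569), in Col27a1 (1.73 ± 0.56, adjusted p = 0.0329) and in Col26a1, which had no UMI in Sst+ cells and was at least 2.57-fold higher in Gcg+ cells by a floor of 3 counts over the group (adjusted p = 0.0279). Of all genes 5.55% were called higher and 6.57% lower there, and all 3 calls were lost under DESeq2, that on Col1a2 also with cells of every cluster (0.84, adjusted p = 0.511). Ins2+ exceeded Sst+ cells in Col4a1 (4.02 ± 0.97, adjusted p = 0.00247, 62 against 1 UMIs), with 8.07% of genes called higher and 7.47% lower, and this call was lost under DESeq2 (adjusted p = 0.0611) and with cells of every cluster (0.73, adjusted p = 0.295).

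Bihormonal Ppy+Gcg+ and Ppy+Sst+ cells had more Col27a1 than monohormonal Ppy+ cells. Ppy+Gcg+ cells (371 and 352 cells) were higher than Ppy+ cells in Col27a1, at 5.268 and 2.089 scaled CPM, between the Ppy+ and Gcg+ levels (4.63 ± 0.80, edgeR adjusted p = 1.77e-04, 27 against 1 UMIs). They were also higher in Col26a1, at 4.742 and 1.492 scaled CPM (3.17 ± 0.80, adjusted p = 0.0136, 23 against 3 UMIs), a call lost under DESeq2 and without the experiment block. Of all genes 1.67% were called higher and 0.862% lower in this comparison. Ppy+Sst+ cells (179 and 211 cells) were at 4.824 and 4.428 scaled CPM of Col27a1, above Ppy+ cells in both experiments (5.01 ± 0.92, adjusted p = 1.96e-04, 13 against 1 UMIs), with 4.8% of genes called higher and 2.18% lower. Ppy+Ins2+ cells (84 and 38 cells) had no Col1a2 UMI, against 87 in Ppy+ cells, and were at least 3.46-fold lower by a floor of 3 counts over the group (adjusted p = 0.0158), with 2.09% of genes called lower and 4.41% higher. That call was lost under DESeq2 (0.051), with doublets kept (0.0527), with raised hormone thresholds (0.0779) and without the experiment block (0.0838). These comparisons share their Ppy+ sums, which were nearly all YFP+ cells. Over all clusters 78 and 59 Ppy+Sst+ cells were YFP-, and 102 and 159 were YFP+. Endocrine Col27a1 was at 7.605 and 7.458 CPM in the YFP- and 2.036 and 1.385 CPM in the YFP+ libraries. In Ppy+Sst+ cells 5 of 6 B-lineage, 3 of 11 acinar, 2 of 6 myeloid and 2 of 3 goblet markers were called higher. In Ppy+Gcg+ cells 2 of 6 B-lineage markers were. Over all clusters 338 and 326 Ppy+Gcg+ cells were YFP+. Of all YFP+ cells, 3 and 4 in experiments 1 and 2 were removed as doublets. The part of library, of these markers and of any doublets left was not tested.

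Within the endocrine clusters Col3a1, Lamc1 and Col8a1 were not called between any of these classes. Lamc1 was the most even of the members, at 2.312 to 11.4 scaled CPM over the 14 sums, and was at 3.905 and 3.973 in Ppy+ cells. Members below the count filter are given as levels. Lama5 was at 4.491 and 4.182 scaled CPM in Ppy+, 3.633 and 1.377 in Gcg+, 0.193 and 1.231 in Ins2+ and 1.244 and 0 in Sst+ cells. Col11a1, a minor fibrillar chain, was at 2.538 and 1.255 scaled CPM in Ppy+ cells and had no UMI in Gcg+, Ins2+ or Sst+ cells. The Sst+ sums held only 563826 and 390608 UMIs, against 5960462 and 5526677 in Ppy+ cells, so their 0 says little. Endocrine cells held 17 and 11 Col11a1 UMIs in the YFP+ libraries and 0 in both YFP- libraries, so class and library cannot be told apart here. Col6a6 was at 5.214 and 18.47 in Ins2+ cells, at 0 and 0.418 in Ppy+ cells and at 0 in Gcg+ and Sst+ cells. Col9a2 was at 3.216 and 3.163 and the neuronal membrane collagen Col25a1 at 3.216 and 1.898 in Ppy+Sst+ cells. Without the filter on low counts, Col11a1 was called higher in Ppy+ than in Gcg+ (log2 fold change 5.27) and Ins2+ cells (5.41), and Lama5 higher in Ppy+ than in Ins2+ cells (3.60). Neither gene was called between Ppy+ and Sst+ cells in this setting. Lama2 was called lower in Ppy+ than in Gcg+ cells (-5.075), and Col6a3 (-6.38) and Col6a6 (-5.43) lower than in Ins2+ cells. No share of all genes called is given for this setting.

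**Figure D4:**
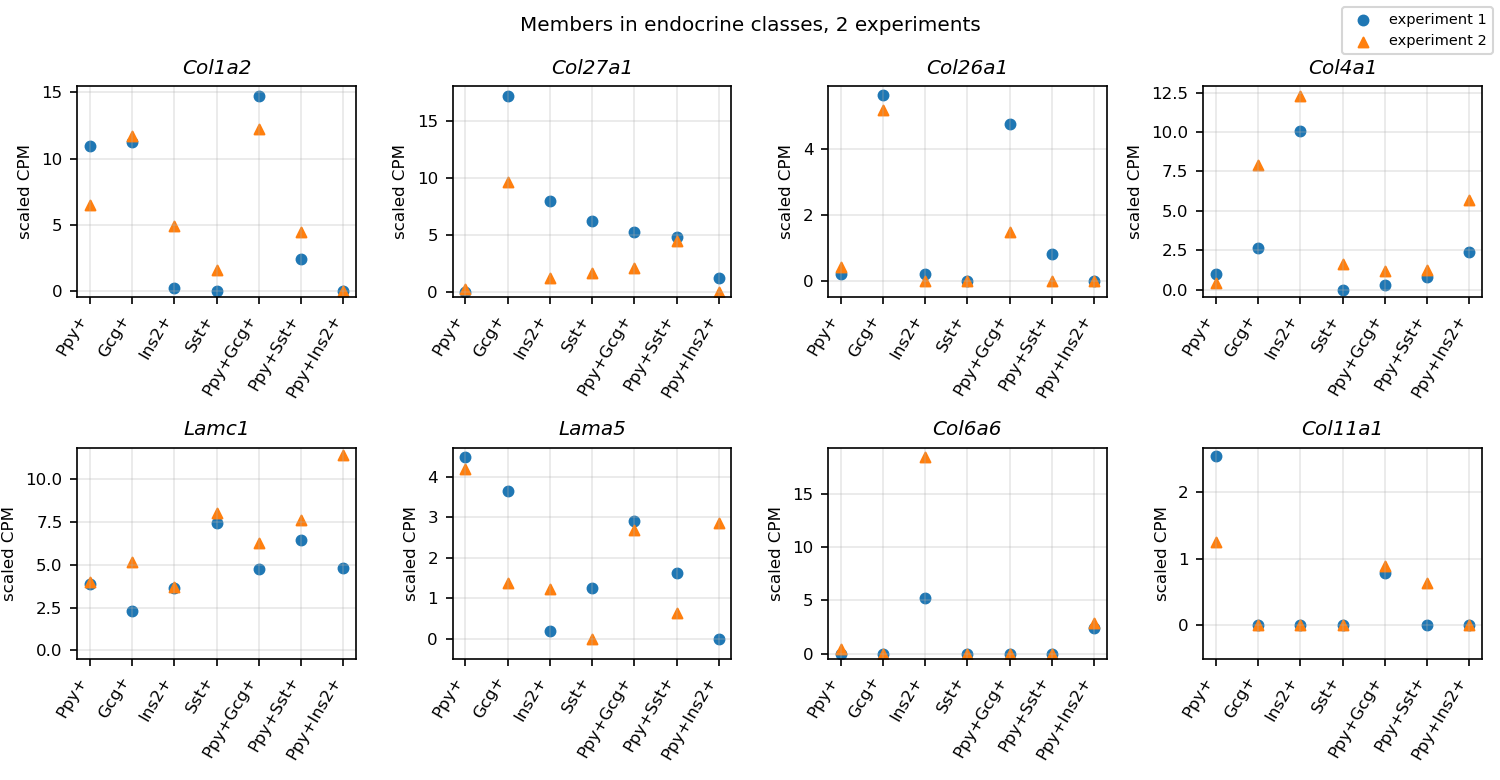
TMM-scaled CPM of 8 members in the 7 hormone classes of endocrine cells, with a point for each of 2 experiments. Col27a1 and Col26a1 are highest in Gcg+ cells, Col4a1 and Col6a6 in Ins2+ cells, Col11a1 in Ppy+ cells, and Col1a2 is higher in Ppy+, Gcg+ and Ppy+Gcg+ cells than in the other 4 classes.

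Partner genes with known roles around these proteins also differed between endocrine classes. Nidogen-1 (Nid1), which links laminin to collagen IV, was higher in Ppy+ than in Ins2+ (log2 fold change 4.16) and Sst+ cells (7.12). Of the 3 basement membrane partners tested, 1 was higher and 1 lower against Ins2+ cells, and 1 higher and 0 lower against Sst+ cells. Egflam and Sparc were lower in Ppy+ than in Gcg+ cells (-6.42 and -2.25), both of the 2 called among the 3 basement membrane partners tested. Colgalt2, which adds galactose to collagen, was higher in Ppy+ than in Ins2+ (7.28) and Gcg+ cells (1.47). Of 18 tested folding and modifying genes 4 were higher and 5 lower in Ppy+ than in Ins2+ cells, where 11.7% and 13.8% of all genes were. Against Gcg+ cells 1 was higher and 0 lower. The laminin receptors Bcam (1.92) and Itga6 (1.92) and the syndecan Sdc4 (1.18) were higher in Ppy+ than in Gcg+ cells, where 3 of 8 tested receptors were called. Of all genes 5.6% were called higher and 6.59% lower there. Of the hyaluronan and collagen receptor Cd44, Ppy+ cells held less than Ins2+ (-3.78) and Sst+ cells (-5.61). Of the 8 tested receptors 3 were higher and 1 lower in Ppy+ than in Ins2+ cells. Against Sst+ cells 1 was higher and 1 lower, where 5.04% and 6.73% of all genes were.

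Bulk RNA-seq of sorted cells asked the same of γ- against δ-cells at greater depth, with 14633838 to 31784878 counts in γ- and 7641916 to 11773598 counts in δ-cell libraries. The hormone genes followed the labels, with Ppy and Pyy summing to 162810 to 202480 CPM in γ- and 25231 to 38144 CPM in δ-cells, and the δ-cell markers at 7688 to 12208 and 71089 to 103170 CPM. Laminin and collagen genes were more often higher than lower in γ-cells. Of the 55 members 45 passed the filter of 5 counts per library on average, and 16 were higher and 4 lower in γ-cells (adjusted p no higher than 0.05 and a log2 change of 1 or more), where 20.7% of the 17926 genes tested were higher and 14.2% lower. At an unadjusted p under 0.05 the counts were 20 and 6, against 5372 and 5107 of all 17926 genes tested. The median log2 fold change was 1.49 over the members and -0.06 over all genes. All γ-cell libraries lay above all δ-cell libraries for 12 members and below for 5, against 22.6% and 34.9% of all genes.

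The stromal markers moved with these differences. They summed to 993.15, 929.3, 2875.1, 1292.4 and 1310.8 CPM in γ-cell libraries 1 to 5 and to 806.21, 284.11 and 98.141 CPM in δ-cell libraries 1 to 3, and 5 of 15 were called higher. The members summed to 900.33, 719.27, 3861.1, 1490.6 and 1144.6 CPM in γ- and to 851.75, 334.14 and 161.18 CPM in δ-cells. In both sums γ-cell library 3 was the highest of all and δ-cell library 3 the lowest. Acinar markers were at 2295.9 to 12835 CPM in γ- and at 23948 to 100650 CPM in δ-cells, endothelial markers at 42.332 to 88.381 and 52.599 to 327.14 CPM, and α-cell markers at 45627 to 85768 and 1622.2 to 6928.6 CPM. The part of these cells in the members' differences was not tested. Fewer cells of a type and less RNA per cell cannot be told apart in bulk samples.

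Among the laminins, Lama5 and Lamc1 separated the cell types without overlap. Lama5 was at 28.19, 30.35, 41.16, 35.71 and 26.72 CPM in γ- and at 8.37, 2.80 and 6.87 CPM in δ-cells (log2 fold change 2.74 ± 0.31, edgeR adjusted p = 3.25e-05, n = 5 and 3). Lamc1 was at 66.2, 57, 108.5, 72.1 and 62.3 CPM in γ- and 26.2, 20.2 and 19.9 CPM in δ-cells (2.00 ± 0.21, adjusted p = 1.96e-05). Lamb2 was called with overlapping groups, at 10.9, 7.06, 39.5, 16.9 and 17.8 against 13.7, 3.65 and 3.11 CPM (1.73 ± 0.63, adjusted p = 0.0391). Per length, the γ-cell means were 8.85 RPKM for Lamc1, 3.03 for Lamb2, 2.87 for Lamb1 and 2.85 for Lama5, and the δ-cell means 2.67, 1.12, 2.12 and 0.528 RPKM, so that Lamc1 was the most abundant laminin chain per length in both. Lama2, Lama4, Lamb1, Lama3 and Lamb3 were not called (2.10, 1.05, 0.74, -1.76 and -1.80, adjusted p = 0.0617, 0.336, 0.435, 0.181 and 0.0794). In Lama5 the single-cell classes stood in the same order, with 4.491 and 4.182 scaled CPM in Ppy+ and 1.244 and 0 in Sst+ cells (1 UMI). Lama5 was below the count filter there, and without the filter it was not called between these 2 classes. Lamc1 stood in the opposite order in single cells and was not called there. Before TMM scaling it was at 3.355 and 3.438 CPM in Ppy+ and at 10.64 and 12.8 CPM in Sst+ cells.

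Basement membrane collagens split. Col4a1 was at 50.8, 31.2, 224, 55.9 and 26.5 CPM in γ- and 27.1, 6.88 and 3.20 CPM in δ-cells (2.97 ± 0.88, edgeR adjusted p = 0.0160), with γ-cell library 3 far above the rest and γ-cell library 5 below δ-cell library 1. Col4a2 followed at 31, 12.6, 95, 20.9 and 16.1 against 12.4, 2.72 and 0.659 CPM (3.07 ± 0.92, adjusted p = 0.0166). Without δ-cell library 2 both calls were lost (adjusted p = 0.068 for Col4a1 and 0.0699 for Col4a2), and without δ-cell library 3 that on Col4a1 (0.0505). Col4a4 and Col4a5 went the other way. Col4a5 was at 3.78, 2.05, 2.62, 2.99 and 4.72 against 12, 6.12 and 8.09 CPM (-1.15 ± 0.35, adjusted p = 0.0168), and Col4a4 at 0.0683 to 0.771 against 1.36 to 3.66 CPM (-2.68 ± 0.76), both with no overlap. Col4a3, Col4a6, Col15a1 and Col18a1 were not called (-0.77, -0.39, 1.49 and 0.93, adjusted p = 0.326, 0.879, 0.245 and 0.221).

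Among the fibrillar chains the most abundant were not called. Col3a1 was at 235.77, 204.79, 1596.2, 518.23 and 437.07 CPM in γ-cells and at 202.96, 77.72 and 0.282 CPM in δ-cells, a difference with no overlap whose δ-cell values spread widely (2.95 ± 1.21, edgeR adjusted p = 0.0634). Col1a2 was at 111.56, 103.04, 406.11, 192.19 and 138.51 against 113.71, 41.02 and 0.188 CPM (2.17 ± 1.00, adjusted p = 0.0924). Col1a1 had a log2 fold change of 2.02 (adjusted p = 0.115), Col5a2 of 1.11 (0.334) and Col11a1 of 1.53 (0.321). Called higher were Col5a1, at 16.8, 9.26, 62.1, 26.1 and 18.7 against 1.83, 1.10 and 0 CPM (5.08 ± 0.88, adjusted p = 7.25e-04), Col5a3 (4.50 ± 1.10) and Col11a2 (2.90 ± 0.71). Called lower was Col27a1, at 6.42, 4.20, 4.68, 1.68 and 5.81 against 17.7, 12.7 and 17.7 CPM (-1.53 ± 0.36, adjusted p = 0.0050). Every γ-cell library was below every δ-cell library, the same direction as in the single Ppy+ and Sst+ cells. The bulk and single-cell values come from different libraries and assays.

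Of 5 beaded-filament chains tested 2 were higher and 1 lower, where 20.7% of all genes tested were called higher and 14.2% lower. Col6a2 was at 30.9, 30.9, 134.8, 49.6 and 37.4 against 5.10, 2.63 and 0 CPM (4.79 ± 0.86, edgeR adjusted p = 9.15e-04), and Col6a3 was higher as well (3.03). Col6a1, the partner chain of Col6a2, was not called (2.30, adjusted p = 0.0617), nor was Col6a5 (0.70, adjusted p = 0.626). Col6a6 was lower, at 7.02, 2.43, 9.68, 5.63 and 5.13 against 18.6, 10.9 and 18 CPM (-1.13 ± 0.36, adjusted p = 0.0230). Of 5 fibril-associated chains 4 were higher, namely Col16a1 (4.14), Col14a1 (3.19), Col9a2 (1.82) and Col20a1 (1.62), beside the same shares of all genes. Col16a1 was at 24.3 CPM in γ-cell library 3 and at 1.5 to 6.17 CPM in the other γ-cell libraries. The Col20a1 call was lost without γ-cell library 1 (edgeR adjusted p = 0.07), and that on Col14a1 with libraries 1 to 3 blocked by number (0.117). Col8a2, a short-chain collagen of the corneal membrane, had narrow groups, at 7.42, 8.92, 8.86, 8.62 and 6.22 against 2.88, 1.87 and 2.73 CPM (1.97 ± 0.29, adjusted p = 2.10e-04). Col26a1, with 1.36, and Col25a1, with -2.16, were not called (adjusted p = 0.0819 and 0.0585).

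**Figure D5:**
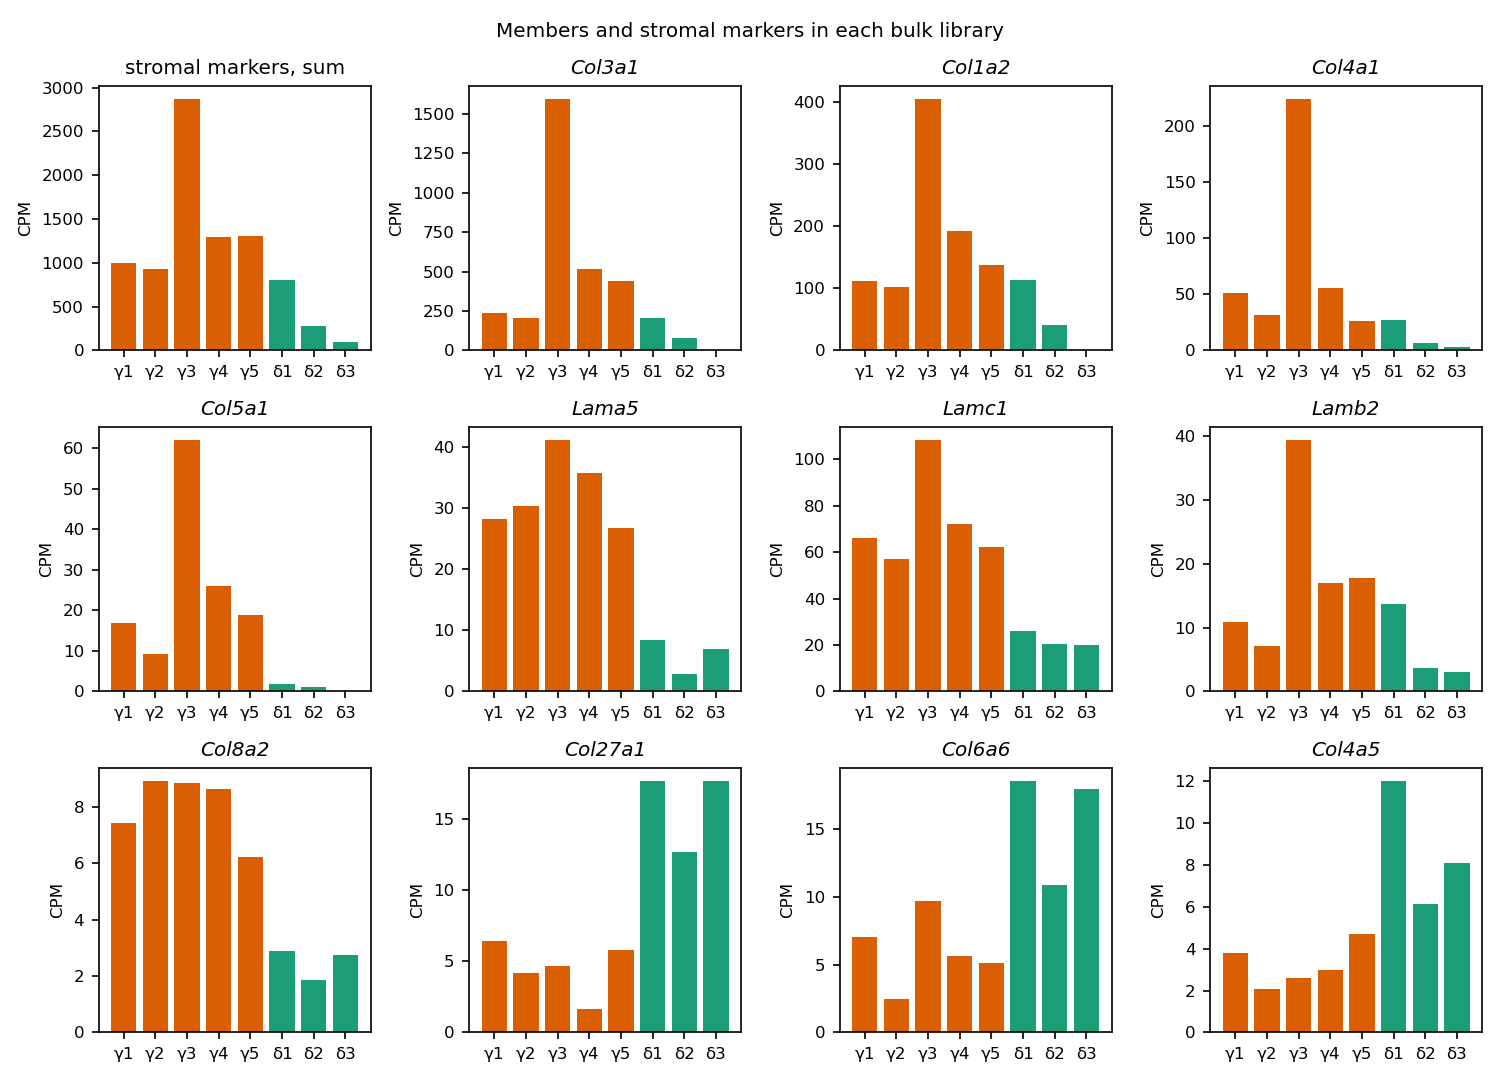
CPM of the summed stromal markers and of 11 members in each bulk library, 5 γ- and 3 δ-cell samples, as bars from 0. γ-cell library 3 stands highest in the stromal sum (2875.1 CPM), Col3a1, Col1a2, Col4a1 and Col5a1, while the highest γ-cell library is at 1.54 and 1.44 times the lowest for Lama5 and Col8a2, Lamb2 overlaps between the groups, and Col27a1, Col6a6 and Col4a5 are higher in δ-cells.

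Matrix partners in bulk were read beside the 20.7% of all genes called higher and the 14.2% called lower. Of 9 basement membrane partners 3 were called, all higher, Nid1 (3.79), Fbln1 (3.46) and Fn1 (2.71). Of 30 tested folding and modifying genes 13 were higher and 1 lower, with Crtap (5.58), Colgalt2 (5.13) and P3h2 (4.34) the largest and Ppib lower (-1.43). Of 18 receptors 6 were higher, led by Itga11 (2.81), Itgb1 (2.08) and the laminin receptor dystroglycan (Dag1, 2.01), and Cd44 was lower (-2.31). Of 11 tested proteases and inhibitors 3 were called, all higher, Mmp14 (4.34), Timp2 (4.28) and Mmp2 (2.86).

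The calls on Lamc1, Lama5, Col5a1, Col6a2, Col8a2 and Col27a1 held when any library was left out, and Lamb2 and Col20a1 were lost most often. Over all genes 3715 were higher and 2553 lower with every library. Without δ-cell library 1, 22 members were higher and 1 lower (all genes 3766 and 2074), and Col4a4, Col4a5 and Col6a6 were no longer called. Without δ-cell library 2 the counts were 11 and 4 (all genes 3430 and 2052), and without δ-cell library 3 they were 15 and 3 (3664 and 2199). Without γ-cell library 3 they were 15 and 8 (3667 and 2588). With the libraries highest and lowest in stromal markers both left out, 17 members were higher and 6 lower (all genes 3597 and 2294). Col1a2 (1.10) and Col3a1 (1.60) were then called.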

How the data were processed

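The authors made the deposited single-cell matrices of UMI counts with Cell Ranger on mm10 and the deposited bulk counts per gene with STAR 2.7.2b on GRCm38.p6 and HTSeq 0.9.1 in union mode; their own analysis used Seurat, R 3.6.1 and DESeq2 1.28.1. The bulk table holds 6 columns that match no sample here, and they were not used. Of the 55 members 1 is counted but not reported here. The members, gene lists and thresholds were chosen with earlier results of these data known. The deposited cells held 500 or more genes each, with under 7% mitochondrial counts. Scrublet (scanpy 1.11.5) called 8 of 5982 cells, under the rate at which it can be said to have worked, and a nearest-neighbour caller called 120. All were removed, 3 and 4 from the YFP+ and 58 and 63 from the YFP- libraries of experiments 1 and 2. Cells were clustered without the members (Seurat 5.3.0, resolution 0.8) and named when 3 or more fixed markers were among the 20 leading genes; rebuilt names may differ from the study's. Clusters without endocrine leading genes, named or not, were left out of the comparisons of hormone classes.

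UMIs were summed per class or hormone group and experiment and fitted across all genes with edgeR 4.0.16 (quasi-likelihood, TMM, filterByExpr, experiment as a block), in R 4.3.3. That YFP+ and YFP- libraries of equal number share an experiment was assumed from their numbers, and the labels do not state it. On that assumption the experiment pairs sums from the same mice. The deviations of same-experiment class sums correlated at 0.0897 to 0.441 over 21 pairs. The fit of hormone-negative against hormone-positive cells has 1 residual degree of freedom and that of the classes 6, with prior degrees of freedom of 3.97 and 28.6. With n = 2 experiments, p-values rest on this shared estimate of the spread. Bulk counts were fitted the same way without a block, on genes whose mean count over the libraries was 5 or more. Ratios of counts carry exact 95% intervals, and a floor of 3 counts stands for a group at 0; both cover counting error only. Named genes are the basement membrane, fibrillar and beaded-filament members, every other called member, and the 3 largest changes each way of the partner lists; Col11a1, Col25a1, Col9a2 and Col23a1 in other places, and the genes of the clusters, were picked after their values were seen. DESeq2 1.42.0, other normalizations, filters, thresholds, left-out libraries and cell choices were tried as alternatives, of which keeping unnamed clusters and leaving out γ-cell library 3 with δ-cell library 3 were chosen after seeing the data. The fits were tested on simulated counts.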

Additional observations from a re-analysis of the deposited data

Results flagged for a closer look

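In the 5 bulk γ-cell libraries, 49 members and sums were examined by Dixon's test for a library that stands apart. The test needs a gap of more than 0.71 of the range, which chance gives in about 1 of 20 groups of normal values. These items share the same 5 libraries and some are sums of others, so they are not independent. In all 18 were found, and they are not separate events. In 17 of them the library was γ-cell library 3. Among collagens it held 1596 CPM of Col3a1 (others 205 to 518), 224 of Col4a1 (26.5 to 55.9), 95 of Col4a2 (12.6 to 31), 51.9 of Col5a2 (9.4 to 20.8), 135 of Col6a2 (30.9 to 49.6), 77.1 of Col6a3 (14.8 to 32.4), 21.8 of Col8a1 (2.5 to 6.51), 12.8 of Col12a1 (0 to 0.907), 24.3 of Col16a1 (1.5 to 6.17) and 23.1 of Col18a1 (4.77 to 6.49). Among laminins it held 38.1 CPM of Lama2 (7.52 to 13.2), 79.6 of Lamb1 (11.7 to 21.8) and 6.47 of Lamc3 (0 to 1.86). Its sums were 3861 CPM over all members (719 to 1491), 3471 over the collagens (564 to 1283), 390 over the laminins (155 to 207) and 2875 over the stromal markers (929 to 1311). Lama5 and Col8a2 were not among the genes found. The remaining one was Col4a6, at 1.32 CPM in γ-cell library 1 and 0 in the other γ-cell libraries.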

How the results depend on the processing

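The count of 26 members higher in hormone-negative cells stayed between 23 (DESeq2) and 28 (doublets kept) and was 27 with no replicate block. Between hormone classes counts were small and moved more. Shares of all genes called are not given for the single-cell alternatives, so these counts are not read as results about the members. Without the filter on low counts the calls were 5 for Ppy+ against Gcg+, 7 for Ppy+ against Ins2+, 7 for Gcg+ against Ins2+ and 2 for Ins2+ against Sst+ cells. With cells of every cluster they were 13 (11 higher, 2 lower) for Ppy+ against Gcg+, 11 for Ppy+ against Ins2+, 8 for Ppy+ against Sst+, 14 (2 higher, 12 lower) for Ppy+Gcg+, 10 for Ppy+Sst+ and 8 for Ppy+Ins2+ against Ppy+ cells, and Col4a1 in Ppy+ against Gcg+ cells turned from -2.77 to 0.84 (edgeR adjusted p = 0.0728). With unnamed clusters kept they were 5 for Ppy+ against Ins2+ and 3 for Ppy+Sst+ against Ppy+ cells. DESeq2 gave 1 for Ppy+ against Sst+, 2 for Gcg+ against Ins2+, 0 for Gcg+ against Sst+, 0 for Ins2+ against Sst+, 1 for Ppy+Gcg+ and 0 for Ppy+Ins2+ against Ppy+ cells. With no replicate block (the experiment left out of the fit) they were 1, 2 and 1 for the comparisons of Ppy+ with Sst+, Gcg+ with Ins2+ and Gcg+ with Sst+ cells, 1 for Ppy+Gcg+ and 0 for Ppy+Ins2+ against Ppy+ cells. Doublets kept gave 1 for Ppy+ against Sst+ and 0 for Ppy+Ins2+ against Ppy+ cells, lowered thresholds 1 for Gcg+ against Sst+, raised thresholds 0 for Ppy+Ins2+ against Ppy+, and leaving out the hormone genes 2 for Ins2+ against Sst+ cells. The cause was not tested. Leaving out an experiment gave directions only, without a test.

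In bulk the 20 calls ranged from 15 to 23 when 1 library was left out. They were 16 with a replicate block of equal numbers, which share only a number (correlations of -0.0952, 0.0678 and -0.274), 23 with DESeq2 and 29 of 55 without the filter. Over all genes 3208 were higher and 2175 lower with the block, 3679 and 2626 with DESeq2, and 3803 and 3787 without the filter. Upper-quartile scaling moved the all-gene median from -0.06 to -0.355 (log2) and gave 13 members higher and 6 lower (all genes 3055 and 3746, against 3715 and 2553), and Lamb2 and Col20a1 were among the calls lost. Over 885 alternative values of the 66 calls on members, summed over comparisons, 1 changed sign. Members that were not called changed sign 104 times, and 16 of these values were called under the alternative. In the classes of endocrine cells 7 of 55 members passed the filter on low counts.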
